A study of Homo sapiens with 22 samples.

Results

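HGF, CHAT, DEFB1 and MAP1B were followed across 2 human leukemia cell lines, 4 of the 20411 genes in the mRNA-seq tables. They were chosen from their response in NB4 cells: HGF, CHAT and DEFB1 held ranks 3, 4 and 5 among decreases with FP54, and MAP1B held rank 4 among increases. The ranking took in only genes with a limma adjusted p below 0.05 (described below) whose DMSO and FP54 libraries did not overlap in NB4 cells. Because that contrast chose the 4 genes, their values in NB4 cells, and the lack of overlap, are a description and carry no test. The question was what the same 4 genes did in MOLM-13 cells, and which genes of their pathways and genomic surroundings moved with them.

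Both lines are acute myeloid leukemia (AML) cells, given as wild type in the labels. NB4 came from acute promyelocytic leukemia and carries PML::RARA, and MOLM-13 carries a rearrangement of KMT2A (MLL) and an internal tandem duplication of FLT3. Each line was treated for 48 h with 2 μM FP54 or with DMSO, its vehicle, in RPMI medium with fetal bovine serum. FP54 is a proteolysis-targeting chimera that joins an FTO binder to a ligand of the VHL ubiquitin ligase, so that FTO, an RNA m6A demethylase, is degraded. Each of the 4 groups had 3 libraries of poly(A)-selected RNA. Nothing in the labels says that the 3 came from separate cultures, so p-values measure the spread between these libraries, which may be technical. FTO mRNA checks no label here, since the protein is the target: it was 1.01 ± 0.0767 RPKM (reads scaled to gene length and library total; SD, n = 3) with DMSO and 1.01 ± 0.118 with FP54 in MOLM-13 cells, and 2.73 ± 0.180 and 2.03 ± 0.0782 in NB4 cells.

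The libraries held 16308944 to 17357945 reads on genes (MOLM-13, DMSO), 5835173 to 19202931 (MOLM-13, FP54), 20655344 to 22342360 (NB4, DMSO) and 10599159 to 13075084 (NB4, FP54). FP54 replicate 2 of MOLM-13 was the shallowest. The 7 markers of KMT2A-rearranged leukemia summed to 182 to 228 RPKM in MOLM-13 and 20.8 to 27.9 in NB4 libraries. HOXA9 lay between 19.1 and 25.4 RPKM in MOLM-13 and between 0.144 and 0.716 in NB4 libraries, but HOXA10 was higher in NB4 cells (means of 13.2 with DMSO and 11.8 with FP54, against 7.30 and 9.05). Of the 5 promyelocytic granule markers, only MPO, the peroxidase, was higher in NB4 cells. MPO was at 2036 to 2263 RPKM in NB4 cells with DMSO and 1082 to 1149 with FP54, against 3.29 to 18.1 in MOLM-13 cells. With DMSO the other 4 were higher in MOLM-13 than in NB4 cells, at means of 186 against 0.150 RPKM for ELANE, 174 against 9.96 for AZU1, 413 against 61.0 for PRTN3 and 116 against 58.5 for CTSG. These 4 go against the promyelocytic label of NB4, and the lines are called by their labels. The NB4 libraries with FP54 also differed in their low values. The mean of 416 olfactory receptor genes, which leukemia cells are not known to use, was 0.00168 to 0.00372 RPKM with DMSO and 0.0496 to 0.0549 with FP54, and 4276 and 2922 genes were at 0 in every library of the group. In MOLM-13 cells that mean was 0.00386 to 0.00434 RPKM with DMSO and 0.00473 to 0.00831 with FP54, a smaller rise in the same direction.

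The 4 genes have unrelated roles. HGF encodes hepatocyte growth factor (scatter factor), secreted as an inactive chain, cut by serine proteases and bound by the receptor tyrosine kinase MET; it is known as a mesenchymal signal to epithelia and is made by some myeloid leukemias. CHAT encodes choline acetyltransferase, which makes acetylcholine from choline and acetyl-CoA in cholinergic neurons and in some lymphocytes. DEFB1 encodes β-defensin 1, a short cationic antimicrobial peptide of epithelia, and MAP1B encodes a large microtubule-associated protein of growing axons.

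In the hg38 assembly with GENCODE v44, HGF (ENSG00000019991.18) lies on the minus strand at chr7:81699010-81770438. CHAT (ENSG00000070748.19) lies on the plus strand at chr10:49609095-49667942. MAP1B (ENSG00000131711.15) lies on the plus strand at chr5:72107234-72209565. Their merged exons span 9753, 6588 and 12540 bases, and those of DEFB1 375. One read was therefore worth far more RPKM for DEFB1 than for the others, 0.119 to 0.457 per library against 0.00357 to 0.0137 for MAP1B.

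The 250 bases upstream of the RefSeq start (GRCh38.p14) are shown for HGF, CHAT and MAP1B, to set the promoters of 2 genes that were lower with FP54 in NB4 cells beside that of the gene that was higher. They are chr7:81770048-81770297 on the minus strand, chr10:49608845-49609094 on the plus strand and chr5:72107225-72107474 on the plus strand. Capitals mark the GC box, with the letters GGGCGG or their reverse complement, and the TATA box, with the letters TATAAA, both searched on either strand.
HGF: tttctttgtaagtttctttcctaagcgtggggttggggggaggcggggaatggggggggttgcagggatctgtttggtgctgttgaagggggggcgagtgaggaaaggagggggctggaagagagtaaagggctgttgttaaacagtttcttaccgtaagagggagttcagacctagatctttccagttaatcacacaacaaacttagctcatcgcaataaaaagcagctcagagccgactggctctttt
CHAT: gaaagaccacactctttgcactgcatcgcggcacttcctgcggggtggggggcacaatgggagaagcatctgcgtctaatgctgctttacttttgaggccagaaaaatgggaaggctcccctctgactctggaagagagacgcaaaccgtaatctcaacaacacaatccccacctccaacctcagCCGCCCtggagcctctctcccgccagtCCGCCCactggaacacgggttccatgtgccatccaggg
MAP1B: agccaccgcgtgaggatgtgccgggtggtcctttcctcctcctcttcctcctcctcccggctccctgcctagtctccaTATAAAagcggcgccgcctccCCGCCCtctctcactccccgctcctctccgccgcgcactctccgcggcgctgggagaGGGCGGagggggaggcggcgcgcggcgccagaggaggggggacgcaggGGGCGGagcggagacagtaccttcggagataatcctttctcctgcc
The MAP1B window was the richest in GC, at 70% with 25 CpG, against 57.6% with 10 CpG for CHAT and 50% with 6 CpG for HGF. The medians over 35114 promoters were 58% and 11. MAP1B held 3 GC boxes, 151, 94 and 46 bases before the start, and a TATA box 172 bases before it. CHAT held 2 GC boxes, 65 and 38 bases before the start. The HGF window held none of the motifs searched, which also included the CCAAT box, the E-box with the letters CACGTG and the AP-1 site with the letters TGANTCA. Of all windows of this length, 42.6% held the GC box, 10.7% the TATA box, 32.0% the CCAAT box, 6.35% the E-box and 6.57% the AP-1 site. GENCODE places the outermost start 391 bases before the RefSeq start of HGF and 241 bases before that of MAP1B, and RefSeq lists 3 starts for CHAT and 2 for MAP1B, of which the first was used. A match of letters is a description and not a binding site.

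In NB4 cells with DMSO, HGF stood at 3.93, 2.36 and 3.67 RPKM (791, 491 and 800 reads). With FP54 it stood at 0.261, 0.238 and 0.227 (27, 27 and 29 reads). As the ranking required, the lowest DMSO library lay above every FP54 library, although DMSO replicate 2 was low for its group. The mean was 3.32 ± 0.839 RPKM with DMSO and 0.242 ± 0.0173 with FP54 (SD, n = 3), which is 13.7-fold lower, and the difference was -3.29 on the log2(RPKM + 0.1) scale (SE 0.23). In bulk RNA, fewer cells that express a gene and less RNA per cell cannot be told apart.

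CHAT was the most abundant of the 4 in NB4 cells, at 17.0, 15.3 and 16.7 RPKM with DMSO (2309, 2149 and 2459 reads). FP54 left 2.38, 2.13 and 2.23 RPKM (166, 163 and 192 reads). The libraries of each group lay close together, with a coefficient of variation of 5.46% (DMSO) and 5.64% (FP54). No overlap between the groups was required by the ranking, and there was none. The mean was 16.3 ± 0.892 RPKM and then 2.24 ± 0.127, a 7.27-fold lower level and a log2 difference of -2.81 (SE 0.06). By mean RPKM over all genes of the NB4 table CHAT moved from rank 2680 to rank 8685.

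DEFB1 (ENSG00000164825.4) lies on the minus strand at chr8:6870592-6877936. It was at 5.16, 5.38 and 4.65 RPKM in NB4 cells with DMSO, from 40, 43 and 39 reads. With FP54 it lay at 0.503, 0.687 and 0.816 RPKM, from 2, 3 and 4 reads. The groups did not overlap, as the ranking required, but the FP54 level rests on 9 reads in all. Its mean was 7.57-fold lower (log2 difference -2.77, SE 0.19).

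MAP1B went the other way. NB4 cells with DMSO gave 0.0888, 0.0636 and 0.0571 RPKM (23, 17 and 16 reads), and those with FP54 gave 4.00, 4.99 and 4.37 RPKM (532, 728 and 717 reads). The gene was barely detected in one group and at a level like that of HGF or DEFB1 with DMSO in the other. The mean was 63.8-fold higher, 4.46 ± 0.497 against 0.0698 ± 0.0167 RPKM, and the log2 difference was 4.74 (SE 0.12). The olfactory receptor mean of the FP54 libraries is small beside this level, and with it subtracted from every value, a setting chosen after seeing the data, the log2 differences were 4.75 for MAP1B, -3.53 for HGF, -2.84 for CHAT and -2.87 for DEFB1.

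Next to MAP1B, INHBE held rank 5 among the increases in NB4 cells at a log2 difference of 4.65, with UNC5B next at 4.64. DEFA3 came right after DEFB1 among the decreases, at -2.69. On this log2(RPKM + 0.1) scale TRGJ1 (-3.84) and RNASE3 (-3.77) fell more than HGF. HMOX1 (5.71), THBS1 (5.59) and GDF15 (4.78) rose more than MAP1B on it. By the ratio of mean RPKM the order was not the same. TRGJ1 (3.75 to 0.573 RPKM) then fell less than HGF, while RNASE3 (9.36 to 0.579) still fell more. HMOX1 (0.620 to 35.8) and THBS1 (0.963 to 50.6) then rose less than MAP1B, and UNC5B (0.0226 to 2.95) rose more. GDF15 was at 0 with DMSO and has no such ratio.

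**Figure D1:**
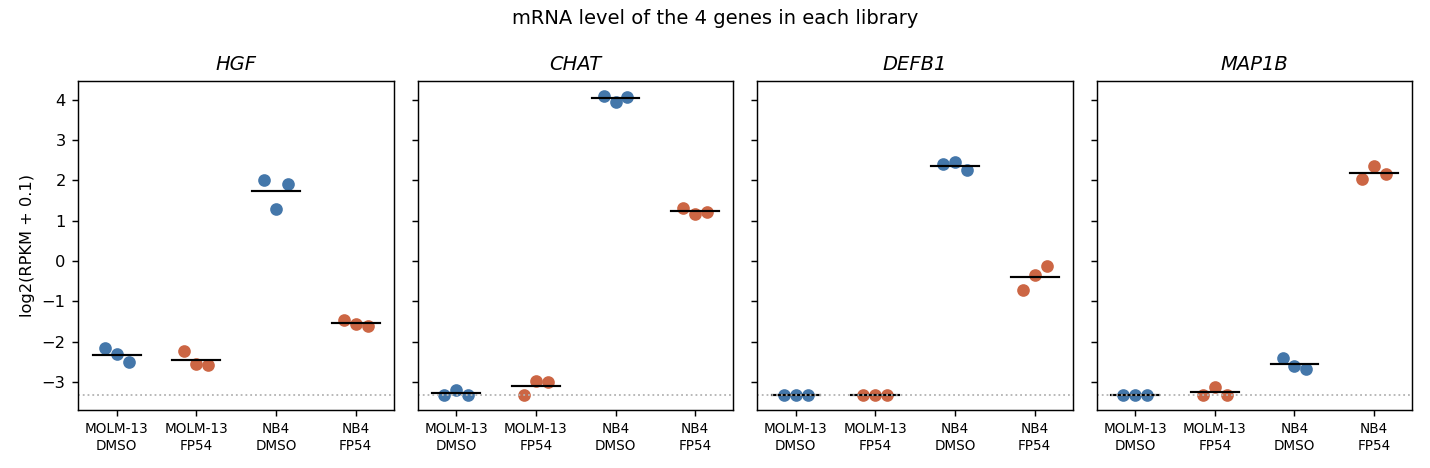
Level of HGF, CHAT, DEFB1 and MAP1B in each of 12 libraries, as log2(RPKM + 0.1); points are libraries, black bars are means of 3, blue is DMSO, orange is FP54, and the dotted line is 0 RPKM. The groups are apart in NB4 cells for all 4 genes, while in MOLM-13 cells HGF is low and overlapping and the other 3 lie on or near the line.

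In MOLM-13 cells none of the 4 passed the filter of a mean of 1 RPKM, so none entered the limma test there. Of all 20411 genes, 9710 passed it in MOLM-13 and 9853 in NB4 cells. That all 4 passed in NB4 cells was set by the ranking, which took in only tested genes. HGF was the only one with more than a few reads. It was at 0.124, 0.101 and 0.0768 RPKM with DMSO (20, 16 and 13 reads) and at 0.112, 0.0704 and 0.0682 with FP54 (21, 4 and 8 reads). The groups overlapped. The log2 difference was -0.13 (SE 0.15), with a two-sided exact permutation p of 0.5, where 3 libraries against 3 cannot give less than 0.1. The rate of reads with FP54 was 91.2% of that with DMSO, and the 95% exact interval of 56.8 to 145% covers counting error only.

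CHAT had 0, 1 and 0 reads in the MOLM-13 libraries with DMSO and 0, 1 and 2 with FP54. MAP1B had 1 read in 1 FP54 library (replicate 2) and none in the other 5. DEFB1 had no read in any of the 6. These genes were at or under the 3-read limit in both groups, so no change with FP54 could be read for them. The limit of 3 reads per library corresponds to 0.0237 to 0.0781 RPKM for CHAT, 0.0125 to 0.0410 for MAP1B and 0.417 to 1.37 for DEFB1. A MAP1B level such as that of NB4 cells with FP54 would have stood far above it.

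The levels of the 2 lines are set side by side as a description, since the choice of large decreases above the filter required a high level in NB4 cells with DMSO, and that of a large increase a high level with FP54. With DMSO, HGF was 33.0-fold higher in NB4 than in MOLM-13 cells, and with FP54 2.90-fold higher. CHAT gave a read-rate ratio of 5399 with DMSO, with a 95% exact interval of 969 to 213266 because MOLM-13 had 1 read, and of 182 with FP54 (62.0 to 887, 3 reads). DEFB1 had no MOLM-13 read, so its NB4 mean was set against the level of 3 reads over the MOLM-13 group. It was 31.8-fold above that level with DMSO and 3.10-fold above it with FP54, where NB4 had 9 reads. By the same measure MAP1B in NB4 cells with DMSO was 14.7-fold above its own 3-read level. These ratios leave out counting error in NB4 cells and are not lower bounds. With FP54 the read-rate ratio of MAP1B was 2075 (372 to 81988, 1 MOLM-13 read). The intervals cover counting error alone, and the 2 tables were scaled separately by library total. Whether the response itself differed between the lines could not be tested for these genes, since the model of that difference used genes above the filter in both lines.

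**Figure D2:**
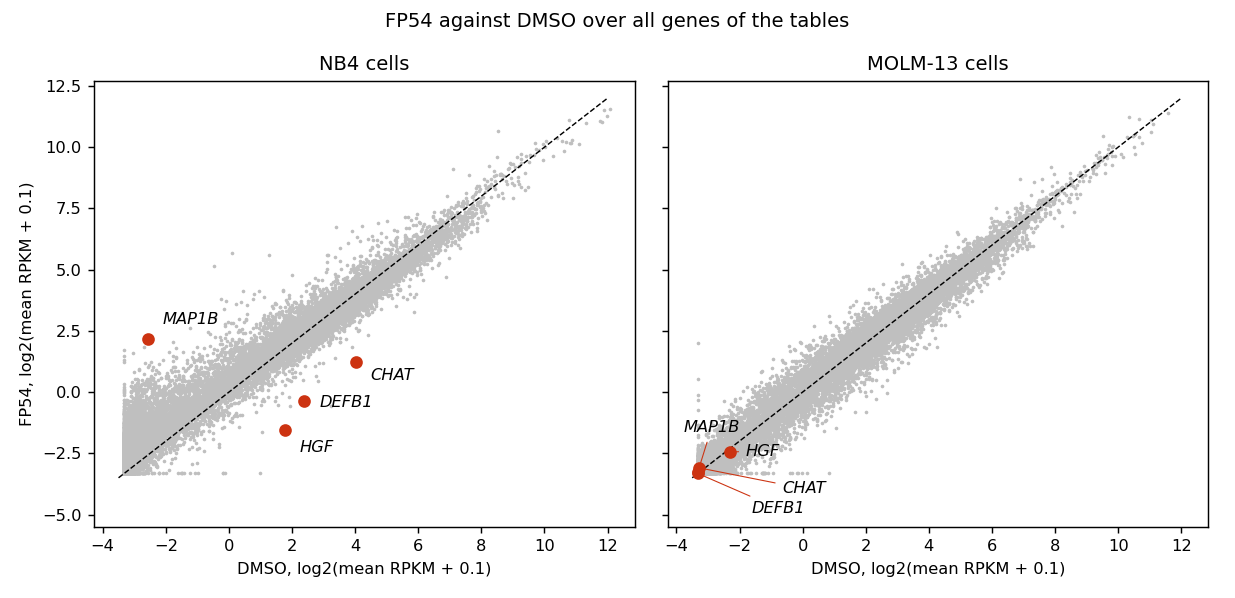
Mean level with FP54 (vertical) against DMSO (horizontal), both as log2(mean RPKM + 0.1), for 20411 genes, with NB4 cells on the left and MOLM-13 cells on the right; grey points are genes, the dashed line marks equal levels, and the 4 genes are in red. In NB4 cells HGF, CHAT and DEFB1 lie below the cloud and MAP1B above it, while in MOLM-13 cells all 4 lie in its lower left corner.

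Markers of neurons, fibroblasts and epithelium, cells that usually make these transcripts, were low or incomplete. The 4 neuronal markers (SNAP25, SYT1, NEFL, RBFOX3) summed to 0.00926 to 0.0139 RPKM in NB4 cells with DMSO and 0.179 to 0.288 with FP54, and to at most 0.202 in MOLM-13 cells. Of the 4, 1 was at 0 in every NB4 library with DMSO and none with FP54. The neuronal sum moved in the direction of MAP1B and opposite to CHAT, and its part in these values was not tested. The mean of the olfactory receptor genes moved the same way, at 0.00168 to 0.00372 RPKM with DMSO and 0.0496 to 0.0549 with FP54. Both sets lay at low values, and the source of the rise was not tested. The 4 fibroblast markers (COL1A1, COL1A2, COL3A1, PDGFRB) summed to 0.122 to 0.198 RPKM with DMSO and 0.917 to 1.16 with FP54 in NB4 cells, opposite to HGF, and COL3A1 was at 0 in all 3 FP54 libraries. In MOLM-13 cells they summed to 0.214 to 0.449 and 0.414 to 0.635. The 4 epithelial markers summed to 20.1 to 21.96 and 22.3 to 24.3 RPKM in NB4 cells and to 6.79 to 8.98 and 5.02 to 7.37 in MOLM-13 cells. EPCAM was at 7.83 to 11.3 RPKM in NB4 libraries and KRT18 at 10.8 to 12.4, but CDH1 was at 0 with DMSO and at most 0.0424 with FP54.

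The 4 lists of genes around the members, 143 genes without the members themselves, were then tested with limma on log2(RPKM + 0.1). A gene was called when p was below 0.01 and the log2 change reached 0.5 in size, the cutoff of the study. In NB4 cells 10.7% of 9853 genes were called lower and 18.6% higher, and in MOLM-13 cells 9.04% of 9710 lower and 9.3% higher. Of the listed genes, 48 were tested in NB4 cells, with 6 lower and 11 higher, and 45 in MOLM-13 cells, with 5 lower and 6 higher. The shares were 12.5% and 22.9% in NB4 cells and 11.1% and 13.3% in MOLM-13 cells, near those of all genes. Scaling by the median ratio moved the median log2 change of all NB4 genes from 0.07 to -0.13, and the calls from 1050 lower and 1834 higher to 2008 and 1184. Quantile normalization gave 1365 and 1281.

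Around HGF, the ligand had almost no receptor RNA. MET had 0 to 2 reads in the NB4 libraries and none in MOLM-13, where 3 reads are worth 0.0216 to 0.0712 RPKM. The activating protease HGFAC had 3 to 7 reads in NB4 and 3 to 15 in MOLM-13 libraries. Of 14 listed genes tested in NB4 cells, 6 rose and none fell (median log2 change 0.44, all genes 0.07), and of 14 tested in MOLM-13 cells 2 rose and none fell (median 0.09, all genes 0.00). Over all tested genes, 18.6% rose and 10.7% fell in NB4 cells, and 9.3% rose and 9.04% fell in MOLM-13 cells.

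SPINT1, an inhibitor of the proteases that activate HGF, rose in NB4 cells from 5.08, 6.39 and 4.69 RPKM to 17.9, 17.7 and 17.3 (log2 change 1.70, SE 0.12, limma adjusted p = 1.89e-06). NRP1, a co-receptor, rose from 0.882, 0.737 and 0.754 to 3.12, 3.32 and 3.74 RPKM (1.97, SE 0.13, limma adjusted p = 1.68e-06). MST1, the HGF-like ligand of the receptor MST1R, rose in both lines, by 1.92 in NB4 (SE 0.10) and by 1.30 in MOLM-13 cells (SE 0.26), though near-identical pseudogene copies make its count uncertain. PLAU, the urokinase protease, rose by 0.79 in NB4 cells (SE 0.09), and the adaptor CBL and the phospholipase PLCG1 by 0.67 and 0.63. The calls of CBL and PLCG1 ended under median-ratio scaling, that of PLCG1 also under quantile normalization and that of CBL also without DMSO replicate 2. In MOLM-13 cells SPINT2, a second protease inhibitor, rose by 0.54, a call that ended without any one of DMSO replicates 1, 2 and 3 or FP54 replicate 1, and with a pseudocount of 1.

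Around CHAT, the genes that carry acetylcholine were nearly silent. SLC18A3, the vesicular transporter, whose gene lies within CHAT, had 1 read in 1 NB4 library (DMSO replicate 2) and none elsewhere. SLC5A7, the high-affinity choline transporter, had at most 4 reads in any library. ACHE, the esterase that ends the signal, had 0 to 2 reads in NB4 cells with DMSO and 2 to 5 with FP54, and 0 or 1 in MOLM-13, and BCHE was at 0 in all 12. Of the 38 listed genes, 13 had at most 3 reads in every NB4 library and 23 in every MOLM-13 library. Among the acetylcholine receptors, CHRNA5 passed the filter in NB4 cells, at means of 2.75 RPKM with DMSO and 2.51 with FP54. CHRNA6 passed it in MOLM-13 cells, at 1.26 and 0.875. Neither was called there, and the other listed receptors lay below the filter in both lines.

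Choline and acetyl-CoA supply was expressed. SLC44A2, a choline transporter-like protein, rose in both lines, in NB4 cells from 11.3, 11.2 and 8.92 to 26.0, 27.0 and 26.8 RPKM (1.34, SE 0.10) and in MOLM-13 cells by 1.17 (SE 0.23), and the changes in the 2 lines did not differ beyond error (limma interaction adjusted p = 0.716). SLC44A1 rose in NB4 cells by 0.67 (SE 0.13), a call that ended under median-ratio scaling. ACLY, which makes cytosolic acetyl-CoA, fell in both lines. Its RPKM went from 66.1, 56.3 and 65.1 to 43.8, 41.3 and 39.9 in NB4 cells (-0.58, SE 0.09, a call lost under quantile normalization) and from 86.8, 61.0 and 75.5 to 19.4, 25.3 and 30.1 in MOLM-13 cells (-1.58, SE 0.19). COLQ, the collagen tail of acetylcholinesterase, rose in MOLM-13 cells by 0.83 (SE 0.15). In all, 1 of 7 tested genes fell and 2 rose in NB4 cells (median 0.03), and 1 of 8 fell and 2 rose in MOLM-13 cells (median 0.10). The shares over all tested genes were 10.7% lower and 18.6% higher in NB4 cells, and 9.04% and 9.3% in MOLM-13 cells.

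Around DEFB1, most of the list was silent: 34 of 47 genes had at most 3 reads in every NB4 library and 37 in every MOLM-13 library. Of the 8 tested in NB4 cells 4 fell and none rose (median -0.38, all genes 0.07), and of the 7 in MOLM-13 cells 1 fell and none rose (median 0.09, all genes 0.00). Over all tested genes, 10.7% fell and 18.6% rose in NB4 cells, and 9.04% fell and 9.3% rose in MOLM-13 cells. The 4 that fell in NB4 cells act in granules or secretions of phagocytes and epithelia. RNASE3, the eosinophil cationic protein, fell in NB4 cells from 6.66, 12.2 and 9.21 to 0.514, 0.702 and 0.521 RPKM (-3.77, SE 0.20, limma adjusted p = 3.64e-07). In MOLM-13 cells it fell from 17.3, 11.9 and 16.7 to 5.89, 6.31 and 9.63 (-1.08, SE 0.22).

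SLPI, a secreted protease inhibitor, fell in NB4 cells from 9.75, 10.8 and 9.76 to 3.01, 2.45 and 2.05 RPKM (-1.98, SE 0.14). DEFA3, a neutrophil α-defensin, fell from 1.86, 2.47 and 1.63 to 0.191, 0.174 and 0.310 RPKM (-2.69, SE 0.21), on 18 to 26 and then 1 to 2 reads. Without DMSO replicate 1 or 2 DEFA3 dropped below the filter and was not tested. Without any other library its log2 change was between -2.87 and -2.58. Its near-identical copies DEFA1 and DEFA1B were listed at 0 in all 12 libraries, so the split of reads between the 3 is uncertain. AZU1, azurocidin, fell by 0.52 (SE 0.11), a call lost without DMSO replicate 2 or FP54 replicate 3, or with a pseudocount of 1. DEFA4, below the filter, had 2 to 6 reads in NB4 cells with DMSO and none with FP54. LYZ, lysozyme, was not called in either line (-0.17 in NB4, 0.28 in MOLM-13 cells).

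Around MAP1B, its closest relatives did not share 1 response. MAP1A, of the same family, rose in NB4 cells from 0.537, 0.542 and 0.563 to 1.84, 1.60 and 2.08 RPKM (1.58, SE 0.15, limma adjusted p = 1.34e-05). In MOLM-13 cells it was below the filter, at 0.222 to 0.346 RPKM with DMSO and 0.258 to 0.499 with FP54. MAP1S, another relative, was not called in either line (-0.12 in NB4, 0.04 in MOLM-13 cells). The light chain MAP1LC3B, which marks autophagosomes, rose in NB4 cells from 19.0, 17.6 and 17.5 to 34.7, 36.7 and 34.6 RPKM (0.97, SE 0.08), and its near-identical copy MAP1LC3B2 by 1.91 (SE 0.16), with reads that may be shared. STMN3, a tubulin-binding stathmin, fell by 0.57 (SE 0.12), a call lost without DMSO replicate 2 or with a pseudocount of 1.

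In MOLM-13 cells TUBA1A, an α-tubulin, fell from 102, 110 and 119 to 48.6, 56.3 and 57.1 RPKM (-1.03, SE 0.13, limma adjusted p = 0.00209). STMN1 and MAP4 fell by 0.74 and 0.60 and FMR1 and MAP10 rose by 0.72 and 0.64. Each of these 4 calls was lost without 1 of several libraries. The STMN1 groups overlapped, at 62.4, 41.96 and 61.7 RPKM with DMSO and 23.0, 42.9 and 34.7 with FP54, and its call also ended under median-ratio scaling and quantile normalization. Those of MAP4 and MAP10 also ended with a pseudocount of 1. Neuronal MAP2 and MAPT were below the filter in both lines, with at most 8 and 16 reads. Over the list, 1 of 19 tested genes fell and 3 rose in NB4 cells (median 0.11), and 3 of 16 fell and 2 rose in MOLM-13 cells (median -0.07). Among all tested genes 10.7% fell and 18.6% rose in NB4 cells, and 9.04% fell and 9.3% rose in MOLM-13 cells.

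The response was also compared between the lines for the 39 listed genes tested in both. In 11 it differed at a limma interaction adjusted p below 0.05, beside 14.2% of the 8849 genes tested. SPINT1 changed by 1.86 more in NB4 than in MOLM-13 cells on the log2 scale (SE 0.20, limma adjusted p = 2.26e-05), TUBA1A by 1.35 more (SE 0.16) and PLAU by 1.07 more (SE 0.16). RNASE3 had the most negative difference, -2.69 (SE 0.33, limma adjusted p = 8.02e-05).

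**Figure D3:**
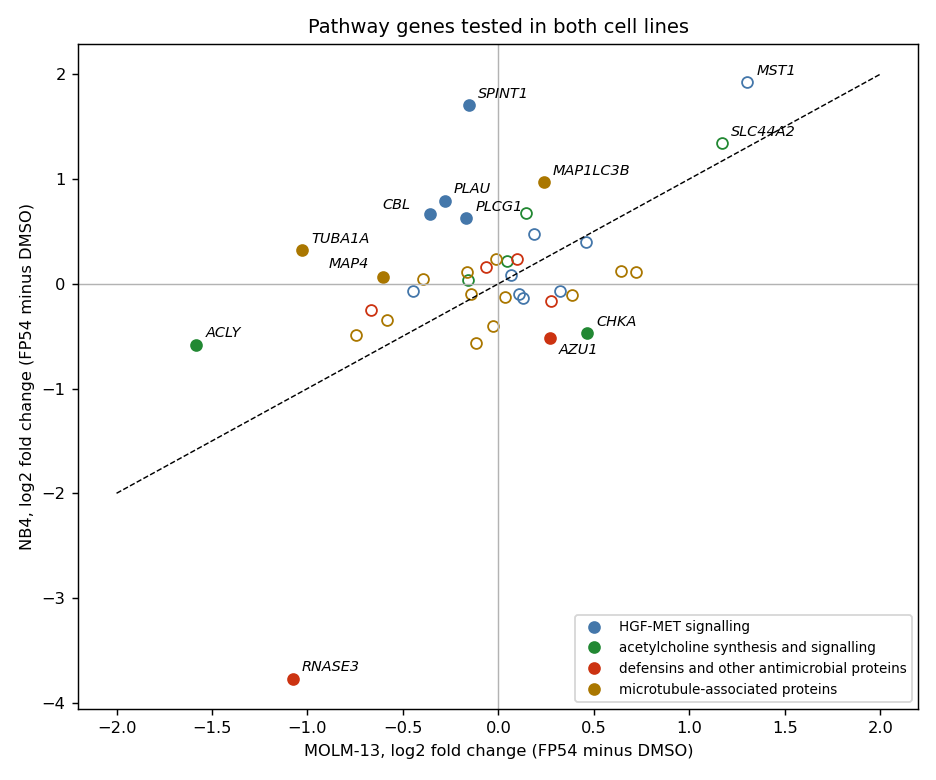
Log2 fold change (FP54 minus DMSO) in NB4 (vertical) against MOLM-13 cells (horizontal) for the 39 listed genes tested in both lines, coloured by list; filled points are the 11 genes whose change differed between the lines, and the dashed line marks equal changes. SPINT1, PLAU, CBL and PLCG1 lie above the line, RNASE3 lies lowest, and MST1 and SLC44A2 lie near it at the upper right.

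Few genomic neighbours could be compared with the members, since only ERCC6 and MRPS27 passed the filter and were tested. Downstream of CHAT on the same strand, 11.7 kb away, C10orf53 had 22, 21 and 19 reads in NB4 cells with DMSO and 1, 0 and 1 with FP54 (0.184, 0.170 and 0.147 RPKM to 0.0163, 0 and 0.0132). Like CHAT it had no support in MOLM-13 cells, with 0 reads in all 6 libraries, but it lay below the filter and was not tested. ERCC6, a DNA repair gene 69.6 kb from CHAT on the other strand, was called higher in both lines, by 0.58 in NB4 (SE 0.15) and 0.63 in MOLM-13 cells (SE 0.19). Both calls of ERCC6 were lost without any one of several libraries or with a pseudocount of 1, and that in NB4 cells also under median-ratio and quantile scaling.

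SEMA3C was the nearest protein-coding gene with values on one side of HGF, at 777 kb. It had 0, 0 and 2 reads in NB4 cells with DMSO and 15, 15 and 18 with FP54. SEMA3C lay below the filter and moved opposite to HGF, in libraries where the olfactory receptor genes, also near 0, rose too. CACNA2D1, 176 kb away on the other side, overlapped between treatments, at 0.285, 0.143 and 0.215 RPKM with DMSO and 0.165, 0.206 and 0.192 with FP54. Beside DEFB1, DEFA6 had at most 2 reads and XKR5 at most 7 in NB4 libraries. Beside MAP1B, CARTPT was at 0 in all 12 libraries. MRPS27, a mitochondrial ribosomal protein gene 5.39 kb away on the other strand, was not called in either line (-0.17 in NB4, -0.47 in MOLM-13 cells). Antisense long non-coding RNA genes overlap DEFB1 and MAP1B in the annotation, and since the strand setting of the counting is not stated, reads from them cannot be told apart from the members' own.

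Last, the genes whose log2(RPKM + 0.1) followed each member most closely were found over the 12 libraries, among 10713 genes with a mean of at least 1 RPKM in either line. For HGF these were PSMD6, a proteasome subunit (Pearson r = 0.98), MORN2 (0.98) and LRRC47 (0.97). Their amplitude was smaller: PSMD6 went from 14.8 to 9.46 RPKM in NB4 cells and lay at 8.38 and 8.13 in MOLM-13 cells. For CHAT they were CBWD1, CCNB1 (cyclin B1) and UNC5C, a netrin receptor, each at r = 0.995. CBWD1 has near-identical copies and its count is uncertain.

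UNC5C, also among the 3 for CHAT, came first for DEFB1 (r = 0.994), before CHAT (0.993) and DEFA3 (0.988). It fell in NB4 cells from a mean of 3.67 to 0.766 RPKM and was at 0.0427 and 0.0144 in MOLM-13 cells. MAP1B was followed by MDK (midkine, r = 0.987), INSL6 (0.986) and IL32 (0.986), which lay at 1.13, 0.117 and 0.796 RPKM in NB4 cells with DMSO and at 7.91, 2.11 and 10.5 with FP54. The 12 points fall into 3 or 4 tight groups by line and treatment and share their depth, so such r values describe the same pattern of group levels and nothing more.

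**Figure D4:**
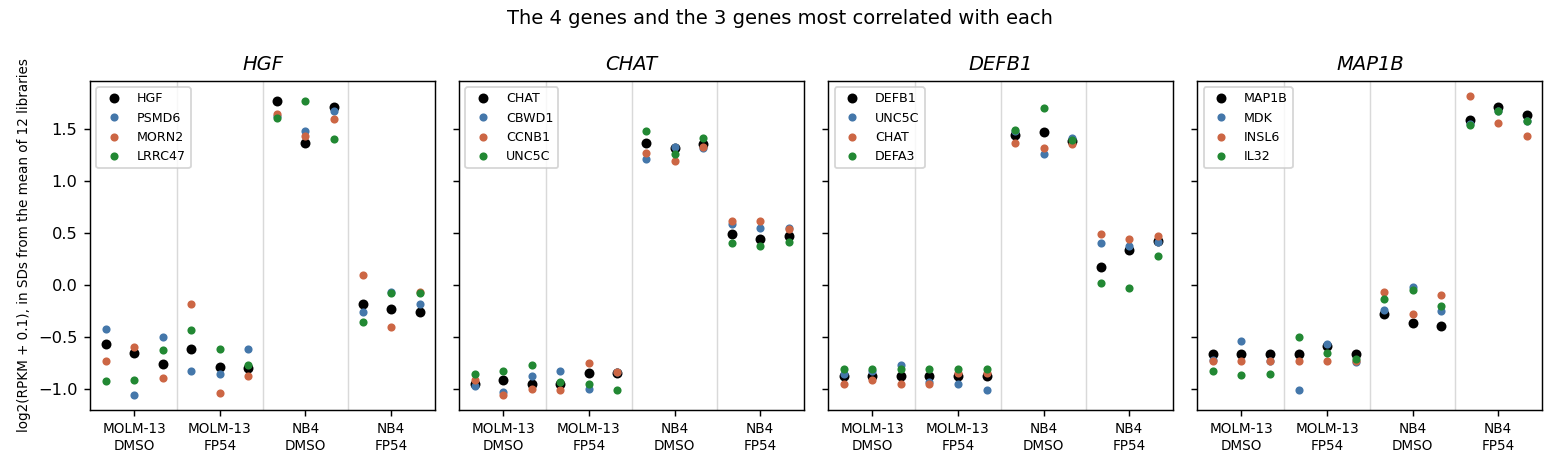
Each member (black) and the 3 genes most correlated with it, in 12 libraries grouped by line and treatment, as log2(RPKM + 0.1) in SDs from each gene's mean. The levels step between groups and vary little within them, most in NB4 cells.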

How the data were processed

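The mRNA-seq libraries of both lines were used (3 per line and treatment, 12 of 22 samples). Another 10 samples, of m6A-seq and polysome-seq, were not used here. According to the paper's methods and the submitters' processing notes, poly(A) RNA was selected, libraries were made with a stranded kit, reads were trimmed with Cutadapt 4.8, deduplicated with Clumpify, aligned to hg38 with STAR 2.7.11b and counted on GENCODE v42 protein-coding genes with featureCounts 2.0.3. The authors deposited RPKM values for 20411 genes. The gene length, the library total and the strand setting behind them are not given in the sources used here. Multiplying RPKM by GENCODE v44 exon length gave whole reads (within 0.05) for 98.5 to 99.2% of low values per library, and read numbers, 3-read limits and exact intervals rest on these.

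The tables were read in Python 3.11.15 (pandas 2.3.3, numpy 2.4.6, scipy 1.17.1, matplotlib 3.10.9). In R 4.3.3, log2(RPKM + 0.1) was fitted with limma 3.58.1 (intensity trend), keeping genes whose mean reached 1 RPKM in the line. P-values were adjusted over all genes tested by the Benjamini-Hochberg method, and the difference between lines was an interaction in 1 model. A pseudocount of 0.1 understates the change of low genes. In simulated data with 200 changed genes of about 1.5 log2 the fits recovered 200 (NB4), 200 (MOLM-13) and 198 (difference between lines). They also called 58, 52 and 14 unchanged genes among 9835, 9672 and 8833 tested. The changed genes were drawn from genes further above the filter in both lines, and every gene was given the same variability setting. Libraries that stray from their group were not simulated, so the recovery does not carry over to such libraries or to genes near the filter.

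The members and lists were chosen with earlier results of these data known. The lists were written from general knowledge. Genes were named by a rule: the 4 members, FTO, 9 close relatives of the members, the 3 largest changes among called genes of each list and line, neighbours, and the 3 most alike genes. Others named (the remaining called genes, HGFAC, SLC5A7, BCHE, CHRNA5, CHRNA6, LYZ, MAP2, MAPT and genes ranked beside the members) were chosen after their values were seen. Alternatives were other pseudocounts, filters, scalings and cutoffs, limma-voom on recovered reads, a replicate block and leaving out each library.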

Additional observations from a re-analysis of the deposited data

Results flagged for a closer look

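Of the listed genes, 11 changed by different amounts in the 2 lines, by an interaction term in limma (adjusted p over 8849 genes, log2 change in NB4 minus that in MOLM-13 cells). Of those 8849 genes 14.2% did so. The change was more positive in NB4 cells for SPINT1 by 1.86 (adjusted p = 2.26e-05), TUBA1A by 1.35 (5.13e-05), PLAU by 1.07 (0.000358), CBL by 1.03 (0.0109), ACLY by 1.00 (0.00815), PLCG1 by 0.80 (0.00577), MAP1LC3B by 0.73 (0.0186) and MAP4 by 0.67 (0.0351). It was more negative for RNASE3 at -2.69 (8.02e-05), CHKA, a choline kinase, at -0.94 (0.00189) and AZU1 at -0.79 (0.0421). ACLY fell in both lines and fell more in MOLM-13 cells, and RNASE3 fell in both and fell more in NB4 cells. CHKA was called in neither line, with log2 changes of -0.47 in NB4 and 0.46 in MOLM-13 cells.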

How the results depend on the processing

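Alternatives were run for the 4 members in NB4 cells and for HGF in MOLM-13 cells. At the filter of 5 RPKM only CHAT in NB4 cells remained. No log2 difference among these changed sign. With a pseudocount of 1, NB4 HGF, CHAT, DEFB1 and MAP1B stood at -1.78, -2.42, -1.86 and 2.35, and with 0.01 HGF and MAP1B stood at -3.69 and 5.82. Quantile normalization gave -3.96, -2.98, -3.30 and 4.08, median-ratio scaling put CHAT at -3.003, and limma-voom put HGF at -3.72 and MAP1B at 5.99. Without 1 library, the differences ranged from -3.51 to -3.16 (HGF), -2.85 to -2.77 (CHAT), -2.90 to -2.60 (DEFB1) and 4.66 to 4.82 (MAP1B), and MOLM-13 HGF from -0.24 to -0.05.

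Counts of calls moved more. With the cutoff at p below 0.05 and a log2 change of 1, NB4 had 138 lower and 675 higher (listed genes 3 and 6) and MOLM-13 325 and 240 (listed genes 3 and 2). With no filter, 4967 genes were higher in NB4 (36 listed) and 3964 differed between lines (29 listed). A filter at 5 RPKM left 789 higher in NB4 (7 listed), 560 lower (3 listed) and 509 higher in MOLM-13, and 633 that differed. Median-ratio scaling gave 2008 lower (10 listed) and 1184 higher in NB4. Without 1 library, calls ranged from 462 to 1213 lower (3 to 7 listed) and 540 to 1122 higher (3 to 6 listed) in MOLM-13, with the fewest lower calls without DMSO replicate 3 (462), FP54 replicate 1 (503) or DMSO replicate 1 (545). In NB4 they ranged from 995 to 1102 lower (3 to 7 listed, 3 without DMSO replicate 2) and 1661 to 2165 higher (10 to 12 listed). Between lines, 438 to 1331 genes differed without 1 replicate number (4 to 11 listed), with 438 without replicate 1 and 502 without replicate 3. The causes were not tested.

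Same-numbered libraries did not deviate together (correlations of -0.26 to 0.12, and 1 of 6 libraries correlated best with its own number). With 3 libraries per group this cannot show whether same-numbered libraries were handled together. The main fit did not pair them. With the replicate block the calls were 1050 lower and 1862 higher in NB4 and 880 and 817 in MOLM-13 cells. Under the block 899 genes differed between lines (9 listed), and MAP4, MAP10 and ERCC6 lost their MOLM-13 calls. The members' differences cannot change under it, since every group holds each replicate number once. Of 30 calls of named genes, 11 were lost without 1 library, that of DEFA3 by dropping below the filter. With a pseudocount of 1, 7 were lost, 5 under median-ratio scaling, 4 under quantile normalization and none with limma-voom. None turned sign under these scalings. Depth limits DEFB1 with FP54 in NB4 cells (2 to 4 reads) and CHAT, DEFB1 and MAP1B in MOLM-13 cells.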
